A study of Mus musculus with 8 samples.

Results

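The genes described here are 42 glutamate receptor subunits, receptor-associated proteins and postsynaptic scaffolds, chosen by symbol. Of these, 38 had a mean of at least 1 FPKM over the 8 libraries, out of 12858 genes past that limit and 24860 in the table. FPKM scales the fragments of a gene to the length of its transcript and to the depth of the library. The libraries were made from mouse retina, and the labels give retinal ganglion cells, the neurons that send axons into the optic nerve, as the cell type. AAV2-shCX36 (n = 4 libraries) received, by its name, a viral vector of serotype AAV2 whose hairpin targets connexin 36, and AAV2-scramble (n = 4) one whose hairpin has a scrambled sequence, so both groups carry a vector. The labels give no strain, age, injury, promoter, injection route or time after injection. The design text speaks of several mice but does not say which library came from which, so the p-values speak only of the spread among libraries, which may be technical.

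Glutamate carries the signal through the retina from photoreceptors to bipolar cells and from bipolar cells to ganglion and amacrine cells. Receptors of the AMPA, kainate and NMDA types are ion channels built of several subunits, whereas metabotropic receptors act through G proteins. Auxiliary subunits such as the TARPs, cornichons and Neto proteins set the trafficking and gating of the channels. Scaffold proteins of the Dlg, Shank and Homer families hold the receptors at the synapse and link them to signalling enzymes.

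Gjd2, which encodes connexin 36, had 17.03, 14.0, 14.6 and 16.6 FPKM in AAV2-shCX36 libraries 1 to 4, and 38.7, 35.9, 17.4 and 18.2 FPKM in AAV2-scramble libraries 1 to 4. The groups did not overlap, but AAV2-scramble 3 and 4 lay close to the AAV2-shCX36 values. The log2 difference was -0.70 ± 0.25 (SE), with an adjusted p of 0.148 in limma over all genes and p = 0.0286 in a two-sided exact permutation test, the smallest p that 70 relabellings allow. Without AAV2-scramble 1 and 2 it was -0.19 (adjusted p = 0.245 in limma), and without AAV2-scramble 3 and 4 it was -1.21 (adjusted p = 0.000763), the single call in 22 alternative fits. Exons of Gjd2 overlap those of A530058N18Rik on the opposite strand, and strand use in counting is not given.

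The ganglion cell markers were all detected, with 12 genes summing to 2681 to 2893 FPKM in AAV2-shCX36 libraries and 1624 to 2859 FPKM in AAV2-scramble libraries, and 0 of the 12 passed the test. Of these markers 6 had an unadjusted p under 0.05, with 5 higher (Rbpms, Thy1, Pou4f3, Nefm and Isl2) and 1 lower (Nefh) in AAV2-shCX36, and the median log2 difference of the list was 0.32. Markers of other retinal cells were present as well, so the libraries hold more than ganglion cells. The 8 rod markers summed to 790 to 1136 FPKM in AAV2-shCX36 libraries and 1220 to 1814 FPKM in AAV2-scramble libraries, with 5 of the 8 lower. The 7 cone markers summed to 1654 to 2557 FPKM in AAV2-shCX36 libraries and 2890 to 4379 FPKM in AAV2-scramble libraries. Of the cone markers 3 were lower in AAV2-shCX36 at the adjusted limit and all 7 at the unadjusted limit. The 8 Müller glia markers summed to 316 to 520 FPKM in AAV2-shCX36 libraries and 548 to 916 FPKM in AAV2-scramble libraries. Of the Müller glia markers 5 were lower in AAV2-shCX36 at the adjusted limit and 6 at the unadjusted limit. The 5 horizontal cell markers in the table summed to 75.1 to 105.6 FPKM in AAV2-shCX36 libraries and 125.4 to 131.1 FPKM in AAV2-scramble libraries. Of the horizontal cell markers 2 were lower in AAV2-shCX36 at the adjusted limit and 4 at the unadjusted limit. The sums of these 4 lists did not overlap between the groups. Over all genes 2.52% were lower at the adjusted limit and 10.3% at the unadjusted limit. The sums of 8 microglia markers did overlap, at 220 to 345 FPKM in AAV2-shCX36 libraries and 186 to 839 FPKM in AAV2-scramble libraries. Of the microglia markers 1, P2ry12, was lower in AAV2-shCX36 at the adjusted limit and 5 at the unadjusted limit. AAV2-shCX36 1 and 4 stood apart in 8 lens markers, which summed to 151 and 326 FPKM there against 4.57 to 21.4 FPKM in the other 6 libraries. AAV2-scramble 1 and 2 stood apart, with 57.3 and 183 FPKM summed over 8 oligodendrocyte markers against 10.7 to 12.1 FPKM in the other 6 libraries, and of these markers Mog, Mobp and Ermn were at 0 in at least 1 library. In bulk libraries fewer cells of a type and less RNA per cell cannot be told apart.

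Of the 38 tested receptor and scaffold genes 1 fell, the scaffold gene Dlg1, and 0 rose. A change here means that limma, with p-values adjusted over all genes by the Benjamini-Hochberg method, gave less than 0.05. The single call is 2.63% of the 38, where 4.76% of all genes were called, 2.24% higher and 2.52% lower in AAV2-shCX36. With the limit moved to 0.1 there were 7 of the 38, where 8.97% of all genes were past that limit. Without adjustment 15 had p under 0.05, of which 12 were higher and 3 lower in AAV2-shCX36. That is 39.5% of the 38, where all genes gave 22.6%, with 12.3% higher and 10.3% lower. The groups did not overlap in 8 of the 38 genes, with 5 higher and 3 lower, or 21.1%. Among all genes 15.9% did not overlap, with 8.85% higher and 7.05% lower.

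The number called depended on the control libraries. Without AAV2-scramble 4 it was 8 of the 38 (Cacng5, Cnih2, Dlg1, Gria3, Grik3, Grin1, Homer3 and Neto2), where 9.04% of all genes were called. Without AAV2-scramble 3 and 4 it was 16 of the 38, where 26.8% of all genes were called. Without AAV2-scramble 1 and 2 it was 2, Dlg1 and Gria2, where 7.33% of all genes were called. Library weights called 3 of the 38 (5.64% of all genes), median-of-ratios scaling 2 (4.61%) and quantile normalization 1, Homer3 (5.11%). With any library other than AAV2-scramble 4 left out singly, 0 of the 38 passed.

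The log2 differences of the 38 genes ran from -0.52 to 0.48 with a median of 0.14, where the median over all genes was 0.01. For all 38 the 95% interval of the difference stayed inside a 2-fold change in either direction, and for 32 of the 38 (84.2%) inside a 1.5-fold change. Over all genes these shares were 93.5% and 78.6%. The exceptions at 1.5-fold were Grik3, Grin3a, Neto2, Cacng5, Cnih2 and Homer3. These differences are on the log2(FPKM + 1) scale, which understates changes in genes of low FPKM.

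**Figure D1:**
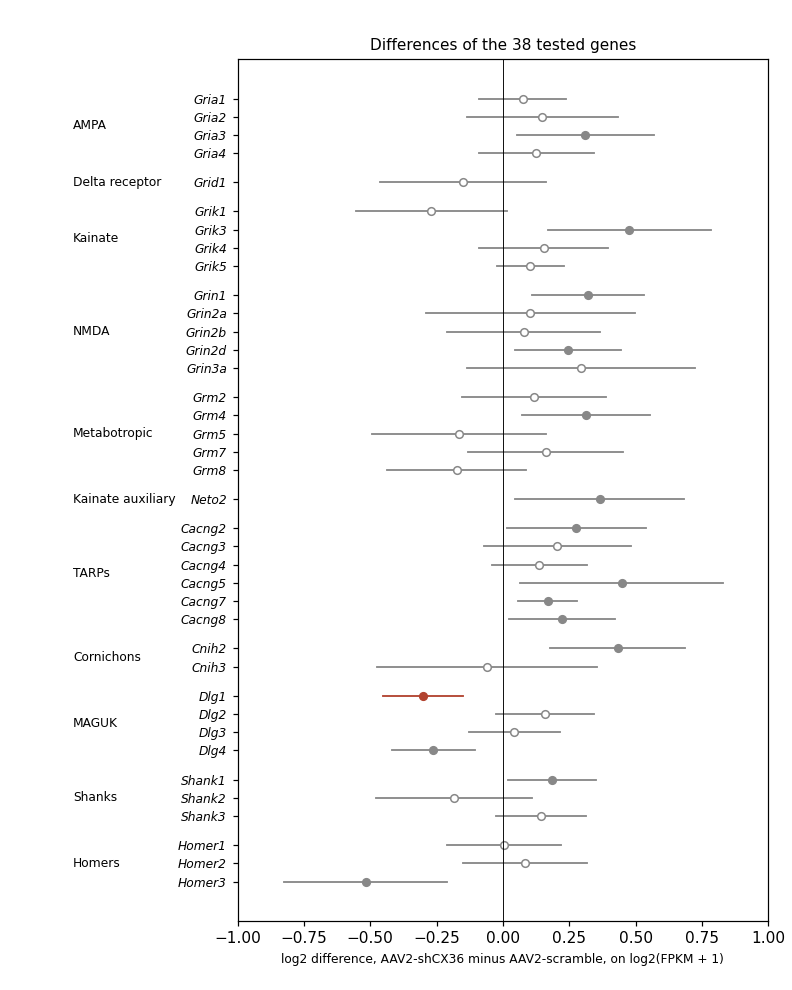
Log2 difference (AAV2-shCX36 minus AAV2-scramble, on log2(FPKM + 1)) of the 38 tested genes by role, with the 95% interval as a line; filled points have an unadjusted p under 0.05 and the red point, Dlg1, is the single gene with an adjusted p under 0.05. All intervals stay between -1 and 1.

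The 8 libraries did not vary alike. The median coefficient of variation of the 38 genes was 7.92% among AAV2-shCX36 libraries and 15.4% among AAV2-scramble libraries, and it was larger in AAV2-scramble for 29 of the 38 (76.3%), where this held for 75.8% of all genes. Over all genes tested the medians were 7.95% among AAV2-shCX36 and 13.1% among AAV2-scramble libraries. On the first principal component of the 38 genes, which held 67.4% of their variance, AAV2-scramble 1 and 2 lay at 1.39 and 1.80, and the other 6 libraries between -1.18 and 0.08. AAV2-scramble 4 lay at -0.51, inside the range of the AAV2-shCX36 libraries, and AAV2-scramble 3 at 0.08, above it.

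**Figure D2:**
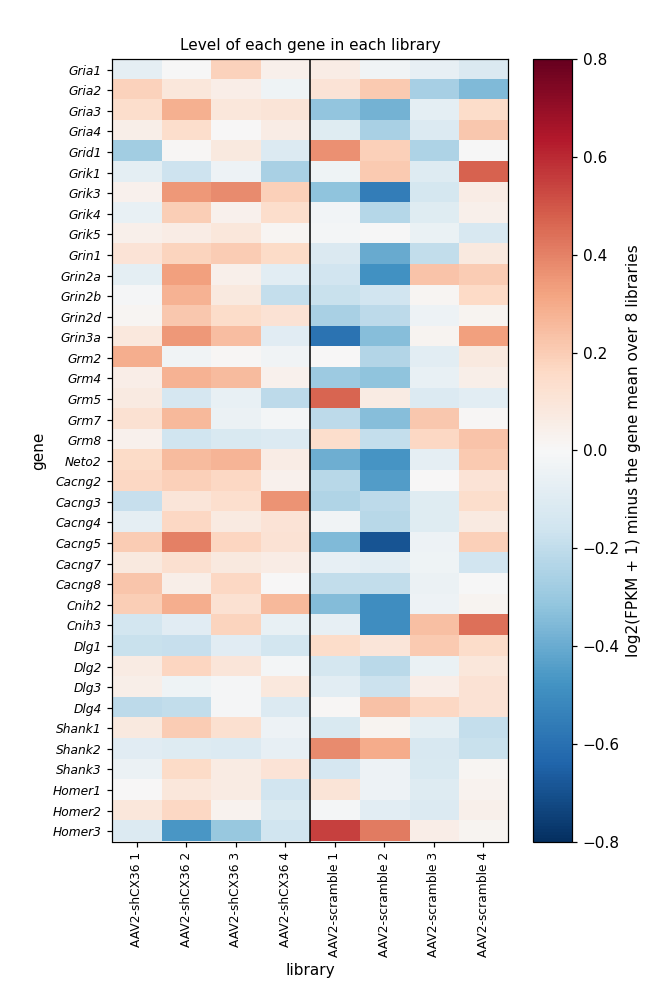
Log2(FPKM + 1) of each of the 38 tested genes (rows, ordered by role) in each library (columns), minus the gene's mean over the 8 libraries; red is above and blue below that mean. AAV2-scramble 2 holds the lowest values of Cacng5 (24.2 FPKM), Cnih2 (20.8 FPKM) and Grik3 (4.92 FPKM), and AAV2-scramble 1 and 2 hold the highest values of Homer3 (12.4 and 11.3 FPKM).

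Among the AMPA receptor subunits, which form the fast glutamate-gated channels, 0 of 4 passed the test in limma and 1, Gria3, had an unadjusted p under 0.05. All 4 were moderately expressed, from 13.8 FPKM for Gria1 to 20.8 FPKM for Gria4 as a mean over the 8 libraries. Gria3 had 15.4, 17.2, 14.9 and 15.03 FPKM in AAV2-shCX36 libraries 1 to 4, and 11.0, 10.46, 13.1 and 15.5 FPKM in AAV2-scramble libraries 1 to 4. AAV2-scramble 4 alone reached the AAV2-shCX36 range, and the log2 difference was 0.31 ± 0.11 (SE; adjusted p = 0.157 in limma). Gria1 averaged 14.2 ± 1.17 FPKM in AAV2-shCX36 and 13.4 ± 0.745 FPKM in AAV2-scramble (SD, n = 4 each). Its 95% interval of the log2 difference ran from -0.09 to 0.24. Gria4 averaged 21.7 ± 0.921 FPKM in AAV2-shCX36 and 19.9 ± 3.00 FPKM in AAV2-scramble.

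Gria2, whose edited subunit makes AMPA channels nearly impermeable to calcium, had 21.8, 20.4, 19.9 and 18.6 FPKM in AAV2-shCX36 libraries 1 to 4, and 20.7, 22.2, 15.7 and 14.7 FPKM in AAV2-scramble libraries 1 to 4. The AAV2-scramble values lay below and above the AAV2-shCX36 values, so the sign of the difference depended on which controls were used. Its log2 difference was 0.15 ± 0.13 (SE; adjusted p = 0.517 in limma), 0.38 without AAV2-scramble 1 and 2 (adjusted p = 0.0235) and -0.09 without AAV2-scramble 3 and 4 (adjusted p = 0.437). Gria2 made up 26.9% to 30.4% of the summed FPKM of the 4 AMPA subunits in AAV2-shCX36 libraries, and 31.7%, 35.1%, 25.7% and 22.0% in AAV2-scramble libraries 1 to 4. The summed FPKM of the 4 subunits was 71.7, 74.3, 71.3 and 69.4 in AAV2-shCX36 libraries and 65.4, 63.2, 61.2 and 67.0 in AAV2-scramble libraries. Every AAV2-shCX36 sum was above every AAV2-scramble sum, a description with no test.

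Grid1, the delta receptor subunit that binds cerebellins at synapses, had 5.41 ± 0.679 FPKM in AAV2-shCX36 and 6.18 ± 1.29 FPKM in AAV2-scramble (log2 difference -0.15 ± 0.14, SE; adjusted p = 0.548 in limma). Of the 5 kainate receptor subunits 4 were tested, 0 passed and 1, Grik3, had an unadjusted p under 0.05. Grik3, a low-affinity subunit, had 7.87, 10.03, 10.3 and 8.89 FPKM in AAV2-shCX36 libraries 1 to 4, and 5.94, 4.92, 6.87 and 8.02 FPKM in AAV2-scramble libraries 1 to 4. AAV2-scramble 4 lay above AAV2-shCX36 1, so the groups overlapped. The log2 difference of 0.48 ± 0.14 (SE) was the highest among the 38 genes, with an adjusted p of 0.0833 in limma. Grik5, a high-affinity subunit that needs a low-affinity partner, was the most abundant kainate subunit, with 13.6 ± 0.306 FPKM in AAV2-shCX36 and 12.6 ± 0.529 FPKM in AAV2-scramble. Its groups did not overlap, at 13.2 to 13.9 FPKM in AAV2-shCX36 and 11.8 to 13.0 FPKM in AAV2-scramble (log2 difference 0.10 ± 0.06, adjusted p = 0.304).

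Grik1, a kainate subunit used by OFF cone bipolar cells in the mammalian retina, had 7.53, 7.04, 7.75 and 6.52 FPKM in AAV2-shCX36 libraries 1 to 4, and 7.77, 9.40, 7.39 and 11.5 FPKM in AAV2-scramble libraries 1 to 4. AAV2-scramble 3 lay inside the AAV2-shCX36 range and the other 3 controls above it (log2 difference -0.27 ± 0.13, SE; adjusted p = 0.243 in limma). As a share of the summed kainate subunit FPKM, Grik1 was 20.9% to 24.3% in AAV2-shCX36 libraries and 25.7% to 34.1% in AAV2-scramble libraries, and Grik3 was 25.4% to 29.9% in AAV2-shCX36 and 16.9% to 23.9% in AAV2-scramble. Neither of these shares overlapped between the groups, whereas the shares of Grik2, Grik4 and Grik5 did. Shares of one family are tied, since a lower share of one gene raises the others. Grik4 averaged 1.71 ± 0.209 FPKM in AAV2-shCX36 and 1.44 ± 0.193 FPKM in AAV2-scramble. Grik2 was below the limit for testing, with 0.678 to 0.839 FPKM in AAV2-shCX36 libraries and 0.562 to 0.742 FPKM in AAV2-scramble libraries.

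Neto2, an auxiliary subunit of kainate receptors that slows their desensitization, had 17.9, 19.2, 19.5 and 16.7 FPKM in AAV2-shCX36 libraries 1 to 4, and 11.96, 11.3, 15.2 and 18.7 FPKM in AAV2-scramble libraries 1 to 4. AAV2-scramble 4 lay within the AAV2-shCX36 range and the other 3 controls below it. Its log2 difference was 0.36 ± 0.14 (SE; adjusted p = 0.172 in limma). Its relative Neto1 was near the lower end of the table, at 0.0436 to 0.157 FPKM in AAV2-shCX36 libraries and 0.0821 to 0.178 FPKM in AAV2-scramble libraries, and was not tested.

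Of the 6 NMDA receptor subunits 5 were tested, all 5 had a positive log2 difference and 0 passed, with Grin1 and Grin2d at an unadjusted p under 0.05. Without AAV2-scramble 1 and 2 the signs of Grin2a (-0.16), Grin2b (-0.05) and Grin3a (-0.03) were negative. Grin1, the obligate subunit of every NMDA receptor, had 66.3, 69.6, 70.8 and 68.3 FPKM in AAV2-shCX36 libraries 1 to 4, and 56.6, 46.2, 53.4 and 64.9 FPKM in AAV2-scramble libraries 1 to 4. The groups did not overlap, although AAV2-scramble 4 came within 1.42 FPKM of AAV2-shCX36 1. The log2 difference was 0.32 ± 0.09 (SE), with an adjusted p of 0.0897 in limma. Exons of Grin1 overlap the antisense gene Grin1os, and without stated strand use fragments of the pair cannot be separated.

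The glutamate-binding Grin2 subunits were much less abundant than Grin1. Their summed FPKM was 10.8 to 13.7 in AAV2-shCX36 libraries and 8.67 to 11.96 in AAV2-scramble libraries. Grin2d had the largest share, at 49.8% to 58.3% of the sum in AAV2-shCX36 libraries and 48.6% to 55.6% in AAV2-scramble libraries. Grin2d itself had 5.83, 6.84, 6.46 and 6.31 FPKM in AAV2-shCX36 libraries 1 to 4, and 4.64, 4.83, 5.55 and 5.86 FPKM in AAV2-scramble libraries 1 to 4. AAV2-shCX36 1 and AAV2-scramble 4 met at the edge of their ranges (log2 difference 0.25 ± 0.09, SE; adjusted p = 0.147 in limma). Grin2a averaged 2.75 ± 0.533 FPKM in AAV2-shCX36 and 2.54 ± 0.782 FPKM in AAV2-scramble, and Grin2b 2.54 ± 0.483 FPKM in AAV2-shCX36 and 2.35 ± 0.372 FPKM in AAV2-scramble. Grin2c, at 0.124 to 0.208 FPKM in AAV2-shCX36 and 0.152 to 0.250 FPKM in AAV2-scramble, was not tested.

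Grin3a, a glycine-binding subunit that lowers the calcium permeability of NMDA receptors, varied widely between control libraries. It had 7.69, 9.41, 8.69 and 6.68 FPKM in AAV2-shCX36 libraries 1 to 4, and 4.43, 5.45, 7.32 and 9.25 FPKM in AAV2-scramble libraries 1 to 4. The control values spanned more than the AAV2-shCX36 values. For Grin3a the log2 difference was 0.29 ± 0.19 (SE; adjusted p = 0.390 in limma), 0.61 without AAV2-scramble 3 and 4 (adjusted p = 0.0149) and -0.03 without AAV2-scramble 1 and 2 (adjusted p = 0.926).

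The tested metabotropic receptors among the 42 genes were expressed at low levels, from 1.42 FPKM for Grm2 to 6.09 FPKM for Grm4 as a mean over the 8 libraries. Of these 5, 0 passed, with 1, Grm4, at an unadjusted p under 0.05. Grm4, a group III receptor that inhibits transmitter release, had 6.29, 7.52, 7.39 and 6.21 FPKM in AAV2-shCX36 libraries 1 to 4, and 4.74, 4.63, 5.73 and 6.25 FPKM in AAV2-scramble libraries 1 to 4. AAV2-scramble 4 lay just above the lowest AAV2-shCX36 value (log2 difference 0.31 ± 0.11, SE; adjusted p = 0.136 in limma). Grm7 and Grm8, also group III receptors, averaged 5.77 ± 0.673 and 1.90 ± 0.174 FPKM in AAV2-shCX36, and 5.10 ± 1.04 and 2.29 ± 0.405 FPKM in AAV2-scramble. Their log2 differences had opposite signs, 0.16 and -0.17, with adjusted p of 0.493 and 0.401 in limma. Grm6, another group III receptor, is not among the 42 genes but in the further list described last. It averaged 19.2 ± 4.75 FPKM in AAV2-shCX36 and 32.7 ± 28.3 FPKM in AAV2-scramble (adjusted p = 0.868 in limma). Grm5, a group I receptor coupled to phospholipase C, averaged 1.51 ± 0.210 FPKM in AAV2-shCX36 and 1.85 ± 0.558 FPKM in AAV2-scramble, and Grm2, a group II receptor, 1.52 ± 0.285 FPKM in AAV2-shCX36 and 1.32 ± 0.209 FPKM in AAV2-scramble. Grm2 was the tested gene nearest the limit of 1 FPKM, and Grik2, with a mean of 0.703 FPKM, was the nearest below it. Grm3, the other group II receptor, was at 0.105 to 0.257 FPKM in AAV2-shCX36 and 0.0459 to 0.326 FPKM in AAV2-scramble and was not tested.

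The TARPs are transmembrane proteins that associate with AMPA receptors, and some of them bring the receptors to the synapse and slow their closing. All 6 had a positive log2 difference, 4 of them had an unadjusted p under 0.05 and 0 passed after adjustment. A positive sign was common, at 76.3% of the 38 genes, 74.4% of the other postsynaptic genes described last and 52.4% of all genes. Among ganglion cell markers 5 were also higher at an unadjusted p under 0.05, as given above, and their part in the higher values of the TARPs, Grin1 and Cnih2 was not tested. Cacng7, the most abundant TARP, had 57.9, 59.9, 57.8 and 57.0 FPKM in AAV2-shCX36 libraries 1 to 4, and 52.2, 51.7, 53.5 and 49.1 FPKM in AAV2-scramble libraries 1 to 4. The groups were apart and both narrow, and the log2 difference was small at 0.17 ± 0.05 (SE; adjusted p = 0.0919 in limma). Cacng8 had 4.87, 4.20, 4.65 and 4.05 FPKM in AAV2-shCX36 libraries 1 to 4, and 3.40, 3.39, 3.86 and 4.02 FPKM in AAV2-scramble libraries 1 to 4. Its groups did not overlap but nearly touched (log2 difference 0.22 ± 0.09, adjusted p = 0.180).

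Cacng5 had 45.9, 52.9, 44.7 and 43.0 FPKM in AAV2-shCX36 libraries 1 to 4, and 30.9, 24.2, 38.5 and 45.4 FPKM in AAV2-scramble libraries 1 to 4. AAV2-scramble 4 lay inside the AAV2-shCX36 range, and the log2 difference was 0.45 ± 0.17 (SE; adjusted p = 0.164 in limma). Cacng2, known as stargazin, had 11.9, 12.1, 11.9 and 10.8 FPKM in AAV2-shCX36 libraries 1 to 4, and 8.88, 7.45, 10.54 and 11.4 FPKM in AAV2-scramble libraries 1 to 4. Here too AAV2-scramble 4 alone reached the AAV2-shCX36 range (log2 difference 0.28 ± 0.12, adjusted p = 0.200). Cacng3 and Cacng4 averaged 41.5 ± 6.44 and 28.0 ± 2.00 FPKM in AAV2-shCX36, and 35.7 ± 4.55 and 25.3 ± 2.25 FPKM in AAV2-scramble, with adjusted p of 0.350 and 0.332 in limma. Shares within the family overlapped for Cacng7, at 29.6% to 32.3% of its summed FPKM in AAV2-shCX36 libraries and 27.3% to 36.4% in AAV2-scramble libraries.

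**Figure D3:**
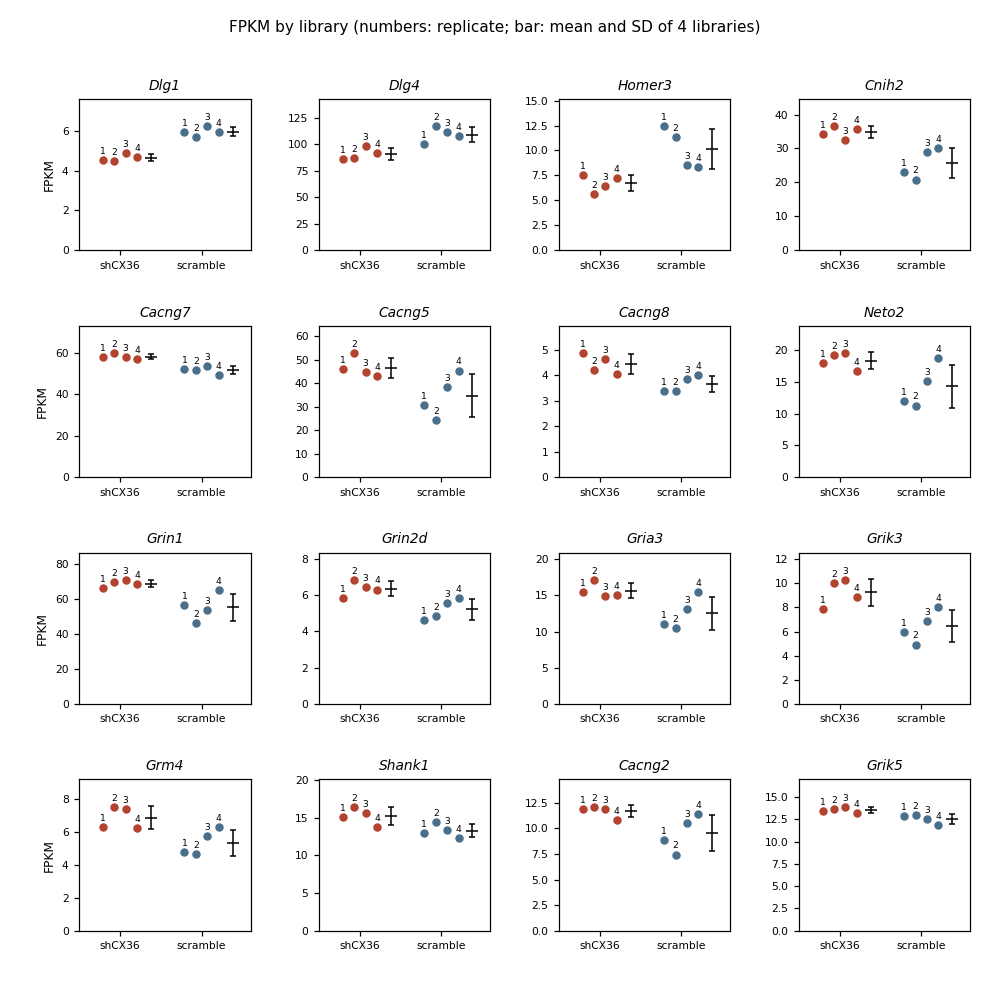
FPKM (linear axes from 0) of the 15 genes with an unadjusted p under 0.05 and of Grik5, in AAV2-shCX36 libraries (red, left) and AAV2-scramble libraries (blue, right); numbers are replicates and black bars the mean and SD of 4 libraries. Dlg1 shows 4 values of 4.51 to 4.88 FPKM in AAV2-shCX36 below 4 values of 5.71 to 6.24 FPKM in AAV2-scramble, whereas in Neto2, Cacng5, Cacng2 and Gria3 AAV2-scramble 4 overlaps the AAV2-shCX36 values.

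Cornichons accompany AMPA receptors out of the endoplasmic reticulum and slow their gating. Cnih2 had 34.2, 36.6, 32.5 and 35.8 FPKM in AAV2-shCX36 libraries 1 to 4, and 23.1, 20.8, 28.9 and 30.2 FPKM in AAV2-scramble libraries 1 to 4. Every AAV2-shCX36 value was above every control. For Cnih2 the log2 difference was 0.43 ± 0.11 (SE), with an adjusted p of 0.0654 in limma, and it was 0.23 without AAV2-scramble 1 and 2 (adjusted p = 0.0738) and 0.64 without AAV2-scramble 3 and 4 (adjusted p = 0.00182). Exons of Cnih2 overlap those of Yif1a on the opposite strand. Cnih3 averaged 7.31 ± 0.855 FPKM in AAV2-shCX36 and 7.88 ± 2.37 FPKM in AAV2-scramble (log2 difference -0.06 ± 0.18, adjusted p = 0.882).

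The Dlg genes encode scaffolds of the membrane-associated guanylate kinase class that tether NMDA receptors and TARPs. Dlg1, which encodes SAP97 (GRCm38 chromosome 16, 31663443 to 31875129, plus strand, protein-coding), fell to 4.53, 4.51, 4.88 and 4.67 FPKM in AAV2-shCX36 libraries 1 to 4, against 5.95, 5.71, 6.24 and 5.95 FPKM in AAV2-scramble libraries 1 to 4. The groups were well apart, and the 4 controls lay close together, unlike in many of the other genes. The mean was 4.65 ± 0.170 FPKM in AAV2-shCX36 and 5.96 ± 0.215 FPKM in AAV2-scramble (SD, n = 4 each), or 78.0% of the control mean. For Dlg1 the log2 difference was -0.30 ± 0.07 (SE; adjusted p = 0.0390 in limma). It kept its sign with any 1 library left out, from -0.32 to -0.28, but its adjusted p was then 0.0448 without AAV2-scramble 4 and 0.0515 to 0.122 without any other library. In the same libraries the rod, cone, Müller glia and horizontal cell marker sums given above were lower in AAV2-shCX36 without overlap, and their part in this difference was not tested.

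Dlg4, which encodes PSD-95 and in the rodent retina is also found in photoreceptor terminals, had the highest FPKM of the 42 genes. It had 86.0, 86.7, 98.7 and 92.04 FPKM in AAV2-shCX36 libraries 1 to 4, and 100.1, 117, 112 and 108 FPKM in AAV2-scramble libraries 1 to 4. The groups did not overlap, and AAV2-shCX36 3 came close to AAV2-scramble 1. The log2 difference of -0.26 ± 0.07 (SE) had an adjusted p of 0.0680 in limma, and in the 22 alternative fits this p was 0.0517 to 0.343. Dlg2 (PSD-93) averaged 9.80 ± 0.582 FPKM in AAV2-shCX36 and 8.68 ± 0.887 FPKM in AAV2-scramble, and Dlg3 (SAP102) 12.5 ± 0.4997 FPKM in AAV2-shCX36 and 12.1 ± 1.202 FPKM in AAV2-scramble, with adjusted p of 0.280 and 0.776. Dlg4 was 76.1% to 78.5% of the summed FPKM of the 4 Dlg genes in AAV2-shCX36 libraries and 78.6% to 82.8% in AAV2-scramble libraries, and Dlg2 was 7.64% to 9.23% in AAV2-shCX36 and 5.52% to 7.203% in AAV2-scramble. These shares did not overlap between the groups, and they do not depend on scaling between libraries. The share of Dlg1 did not overlap either, at 3.88% to 4.01% in AAV2-shCX36 and 4.04% to 4.73% in AAV2-scramble. Shares of the family are tied to each other, so the higher share of Dlg2 goes with the lower shares of Dlg4 and Dlg1. The share of Dlg3 overlapped, as did every share in the AMPA subunit, Grin2, TARP and Homer families.

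Promoters are shown for Dlg1, the single gene that passed, for its relative Dlg4, and for Homer3 and Cnih2, the genes with the most negative difference of the 38 and with the most positive one among those whose groups did not overlap. Each is 250 bases before to 50 after a RefSeq transcription start, on build GRCm38.p6, taken at the start nearest the GENCODE gene start. That start lay 261 bases from the GENCODE start for Dlg4 and 172 for Homer3, and 0 for Dlg1 and Cnih2. The Dlg4 window lies wholly downstream of the GENCODE gene start at 70016942. RefSeq lists 4 such starts for Dlg1 and 3 for Dlg4, and the FPKM values do not tell which one was used. Capitals mark matches on either strand to GGGCGG (GC box), TGACGTCA (cyclic AMP response element) and TAATCC (a motif of CRX-type homeodomain factors).
Dlg1, chr16:31663193-31663492, plus strand: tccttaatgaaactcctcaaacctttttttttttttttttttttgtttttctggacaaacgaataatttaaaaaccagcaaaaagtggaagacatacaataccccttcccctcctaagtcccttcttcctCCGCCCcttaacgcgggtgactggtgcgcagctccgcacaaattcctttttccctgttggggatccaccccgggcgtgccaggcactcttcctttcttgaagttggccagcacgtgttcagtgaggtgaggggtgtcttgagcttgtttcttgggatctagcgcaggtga
Dlg4, chr11:70016953-70017252, plus strand: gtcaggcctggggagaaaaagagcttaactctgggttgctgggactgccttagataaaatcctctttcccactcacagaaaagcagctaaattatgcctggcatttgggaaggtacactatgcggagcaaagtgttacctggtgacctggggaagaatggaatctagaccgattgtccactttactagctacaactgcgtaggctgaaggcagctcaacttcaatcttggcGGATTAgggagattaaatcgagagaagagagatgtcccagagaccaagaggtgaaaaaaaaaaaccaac
Homer3, chr8:70282749-70283048, plus strand: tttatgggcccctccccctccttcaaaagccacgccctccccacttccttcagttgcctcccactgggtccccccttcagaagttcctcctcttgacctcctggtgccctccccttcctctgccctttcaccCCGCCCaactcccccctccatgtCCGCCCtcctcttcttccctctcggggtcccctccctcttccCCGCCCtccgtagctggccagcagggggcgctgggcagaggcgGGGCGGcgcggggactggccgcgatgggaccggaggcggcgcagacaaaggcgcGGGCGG
Cnih2, chr19:5098472-5098771, minus strand: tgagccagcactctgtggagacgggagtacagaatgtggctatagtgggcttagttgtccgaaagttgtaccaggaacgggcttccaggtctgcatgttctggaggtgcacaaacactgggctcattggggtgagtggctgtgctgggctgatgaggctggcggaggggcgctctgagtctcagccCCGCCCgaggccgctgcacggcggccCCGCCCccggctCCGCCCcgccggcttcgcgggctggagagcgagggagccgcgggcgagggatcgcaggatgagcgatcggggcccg
The Dlg1 window held 1 GC box, that of Homer3 held 5 and that of Cnih2 held 3, whereas that of Dlg4 held 1 TAATCC match. GGGCGG was in 22 of the 44 promoter windows (50%) of 29 of the 42 genes and in 35.7% of 32851 windows of all genes. The median GC content was 61.5% in the 44 windows and 52.7% in all windows. TAATCC was in 4.55% of the 44 and 7.06% of all windows, and TGACGTCA in 0 of the 44 and 1.79% of all windows. The GC content was 47.3% for Dlg1, 46.3% for Dlg4, 69.7% for Homer3 and 67.3% for Cnih2. A match is a stretch of letters and no measure of binding.

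Shank proteins sit deeper in the postsynaptic density and join receptor complexes to the actin cytoskeleton, and 0 of the 3 genes passed, with 1, Shank1, at an unadjusted p under 0.05. Shank1 had 15.1, 16.5, 15.6 and 13.8 FPKM in AAV2-shCX36 libraries 1 to 4, and 12.9, 14.4, 13.4 and 12.3 FPKM in AAV2-scramble libraries 1 to 4. AAV2-scramble 2 lay above AAV2-shCX36 4, and the log2 difference was 0.18 ± 0.07 (SE; adjusted p = 0.182 in limma). Shank3 averaged 6.40 ± 0.433 FPKM in AAV2-shCX36 and 5.69 ± 0.331 FPKM in AAV2-scramble (adjusted p = 0.289). Shank2 had 5.85, 5.78, 5.77 and 5.98 FPKM in AAV2-shCX36 libraries 1 to 4, and 8.50, 7.95, 5.67 and 5.44 FPKM in AAV2-scramble libraries 1 to 4. AAV2-scramble 1 and 2 were high and AAV2-scramble 3 and 4 were below the 4 AAV2-shCX36 values. The log2 difference was -0.18 ± 0.13 (adjusted p = 0.436), -0.43 without AAV2-scramble 3 and 4 (adjusted p = 0.00776) and 0.06 without AAV2-scramble 1 and 2 (adjusted p = 0.657). Shank2 was 19.9% to 22.7% of the summed Shank FPKM in AAV2-shCX36 libraries and 22.8% to 31.7% in AAV2-scramble libraries, without overlap. The shares of Shank1 and Shank3 overlapped.

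Homer proteins link group I metabotropic receptors to Shank proteins and to calcium stores. Homer3 had 7.52, 5.67, 6.47 and 7.26 FPKM in AAV2-shCX36 libraries 1 to 4, and 12.4, 11.3, 8.55 and 8.33 FPKM in AAV2-scramble libraries 1 to 4. All AAV2-shCX36 values were below all controls, and AAV2-scramble 1 and 2 were the highest of the 8. The log2 difference of -0.52 ± 0.14 (SE) was the lowest of the 38 genes, with an adjusted p of 0.0661 in limma. It was -0.30 without AAV2-scramble 1 and 2 (adjusted p = 0.146) and -0.74 without AAV2-scramble 3 and 4 (adjusted p = 0.00446). In AAV2-scramble 1 and 2 the oligodendrocyte, ON bipolar, OFF bipolar, microglia and Müller glia marker sums were also highest. Of the OFF bipolar sums of 98.7 and 90.6 FPKM, Cabp5, which is in both bipolar lists, gave 84.7 and 73.5 FPKM. Of the other tested OFF bipolar markers, Vsx1, also in both lists, was highest in AAV2-scramble 2, Grik1 in AAV2-scramble 4 and Tacr3 in AAV2-shCX36 1. The 8 ON bipolar markers summed to 426 and 405 FPKM in AAV2-scramble 1 and 2, against 99.4 to 216 FPKM in the other 6 libraries. The 8 microglia markers summed to 839 and 789 FPKM there, against 186 to 424 FPKM. Ganglion cell marker sums were lowest there, and the part of these lists in the Homer3 difference was not tested. Exons of Homer3 overlap those of Ddx49 on the opposite strand. Homer1 averaged 2.52 ± 0.263 FPKM in AAV2-shCX36 and 2.50 ± 0.217 FPKM in AAV2-scramble, and Homer2 1.59 ± 0.215 FPKM in AAV2-shCX36 and 1.44 ± 0.119 FPKM in AAV2-scramble. Homer3 was 55.5% to 67.7% of the summed Homer FPKM in AAV2-shCX36 libraries and 66.7% to 75.0% in AAV2-scramble libraries.

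**Figure D4:**
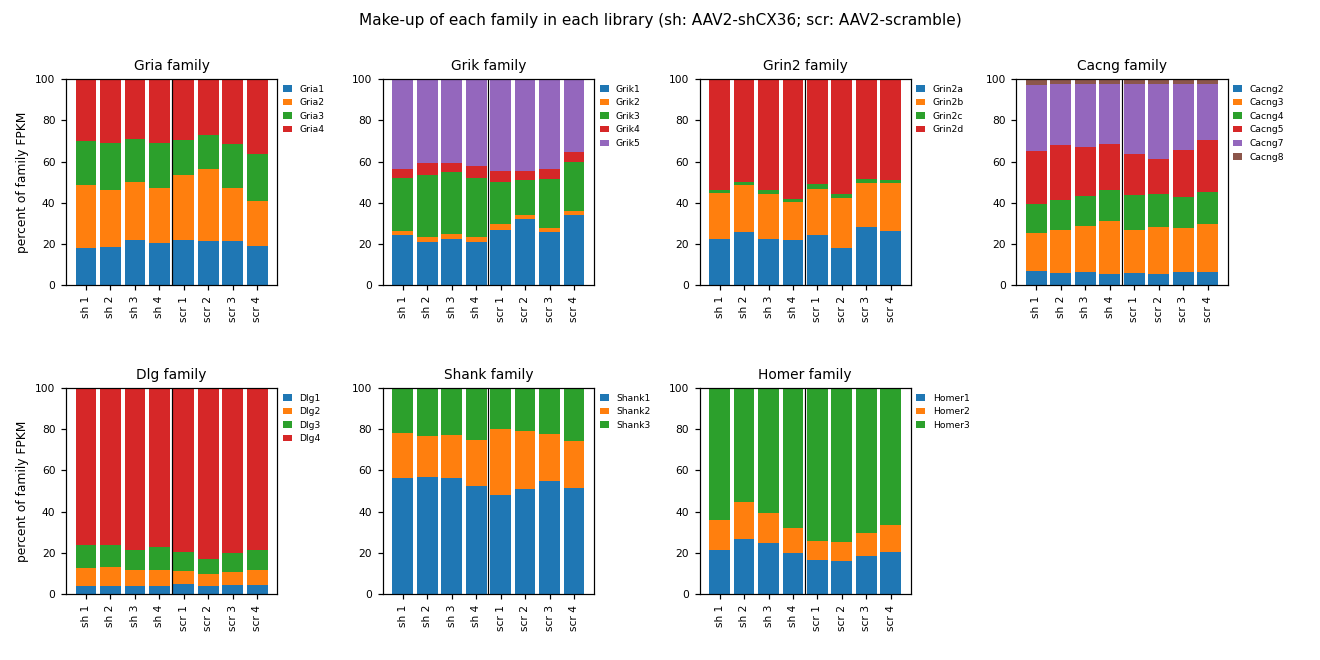
Share of each gene in the summed FPKM of its family (percent, stacked bars from 0 to 100) in AAV2-shCX36 libraries (sh, left of the line) and AAV2-scramble libraries (scr, right). Dlg4 supplies 76.1% to 82.8% of Dlg FPKM in every library, and the share of Grik1 is 20.9% to 24.3% in AAV2-shCX36 and 25.7% to 34.1% in AAV2-scramble.

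A further list of 50 postsynaptic genes was set beside these, and 43 of them were tested. By the same limma test 0 of the 43 passed. Before adjustment 8 were under 0.05, with 7 higher and 1 lower in AAV2-shCX36, or 18.6% against 22.6% of all genes. The smallest p were those of Lin7c, a small scaffold that binds Dlg complexes, with 18.7 ± 0.552 FPKM in AAV2-shCX36 and 22.0 ± 1.49 FPKM in AAV2-scramble (adjusted p = 0.0816), and of Camk2a, the alpha subunit of the kinase that phosphorylates AMPA receptors in synaptic plasticity, with 32.0 ± 2.58 FPKM in AAV2-shCX36 and 22.9 ± 4.72 FPKM in AAV2-scramble (adjusted p = 0.0869). The list had a median log2 difference of 0.09.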

How the data were processed

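The values are FPKM, deposited by the authors as 1 table of 24860 gene symbols by 8 libraries of total RNA, sequenced as paired-end reads per the labels' protocols. The submitters' processing notes name fastp, HISAT2, HTSeq, R 3.2.0 and DESeq2, and the builds GRCm38 and mm10. Counting options and strand use are not given in the sources used here. All value columns matched a sample by name, with 0 unmatched. The table holds no counts. From whole-fragment steps in single-exon genes a depth near 38000000 fragments was estimated (31 of 241 genes at the mode), which is approximate, so no counting interval is given. FPKM summed to 282721 to 294055 per library.

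Each difference (AAV2-shCX36 minus AAV2-scramble) was taken on log2(FPKM + 1). A linear model without covariates was fitted in limma 3.58.1 under R 4.3.3 (lmFit, then eBayes with trend = TRUE) to the 12858 genes whose mean reached 1 FPKM. Genes were called at a Benjamini-Hochberg adjusted p under 0.05 over all of them. SE and 95% intervals are limma's moderated ones. Fits without a library kept the same genes. On simulated data the fit called 36 of 50 planted 1.5-fold changes and 48 of 50 planted 2-fold changes. The simulated spread of a gene was the same in both groups, unlike that among these libraries. Alternatives changed the pseudocount, filter, scaling, variance model and libraries.

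Each of the 38 receptor and scaffold genes is named, those with an unadjusted p under 0.05 with all 8 values. Of the 43 other postsynaptic genes tested, the 2 with the smallest p and Grm6 are given by group means. The genes and lists were chosen with earlier results of these data known, so no list is tested as a set. Positions and overlaps come from GENCODE vM21 (GRCm38), where all 42 symbols matched and 14 of the genes share exon sequence with a gene on the opposite strand. Tables and figures were made in Python 3.11.15 with pandas 2.3.3 and matplotlib 3.10.9.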

Additional observations from a re-analysis of the deposited data

Results flagged for a closer look

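Grm2 in AAV2-shCX36 1, at 1.94 FPKM, lay far from the other libraries of its group, at 1.35 to 1.42 FPKM. It was the single such value in 78 groups of 4 libraries examined, where chance gives about 1 in 20 groups, or 3.9.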

How the results depend on the processing

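No gene named here with an unadjusted p under 0.05 changed the sign of its difference in any of the 22 alternative fits in which it was tested. Over all genes, 288 were higher and 324 lower in AAV2-shCX36. These counts were 177 and 134 without a filter on low values, 571 and 582 at an adjusted p under 0.1, and 76 and 30 without AAV2-shCX36 1 and 4, the libraries high in lens markers. Leaving out AAV2-scramble 1 and 2 gave 554 higher and 388 lower, and leaving out AAV2-scramble 3 and 4 gave 1536 higher and 1905 lower. With each library left out in turn they ran from 101 (AAV2-shCX36 2) to 573 (AAV2-scramble 4) and from 70 to 589 for the same libraries. The replicate number as a block (replicate block) gave 107 and 57 calls, and none of the 38 genes, with Dlg1 at an adjusted p of 0.142. Same-numbered libraries are not stated to share a mouse or batch. The correlations of their deviations from the group means were 0.13, -0.30, 0.23 and -0.27, which cannot show whether they do. Among the AAV2-shCX36 libraries only number 3 correlated best with the control of its own number.

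Among the 38 genes, 0 were higher and 1 lower. The number higher was 2 with library weights (Cnih2 and Grin1), 4 at an adjusted p under 0.1, 1 without AAV2-scramble 1 and 2 (Gria2), 13 without AAV2-scramble 3 and 4, and 0 to 6 with a single library left out, the 6 without AAV2-scramble 4. The number lower was 0 without a filter, 0 without AAV2-shCX36 1 and 4, 2 with median-of-ratios scaling (Dlg1 and Homer3), 3 at 0.1, 3 without AAV2-scramble 3 and 4, and 0 to 2 with a single library left out. At 26.8% of all genes called, the fit without AAV2-scramble 3 and 4 called 42.1% of the 38. Dlg1 passed in 11 of 22 alternatives, with an adjusted p of 0.0299 to 0.268. It missed the threshold without a filter (0.0577, where more genes are tested) and with quantile normalization (0.101), where Homer3 passed instead (0.0347) and the cause was not tested. The median log2 difference of all genes stayed between -0.02 and 0.04. Depth is approximate, so no counting error was set on genes near 1 FPKM.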
